A study of Mus musculus with 16 samples.

Results

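Interleukins are the cytokines through which blood, immune and tissue cells signal to each other, and the genes described here encode these ligands and the chains of their receptors. All protein-coding genes of the GENCODE M21 annotation (mouse genome build mm10) whose symbol starts with Il and a number were taken, apart from Il7r, which gave 81 genes of 21851. They comprise 38 ligands (antagonists such as Il1rn included), 40 receptor chains, decoys and receptor relatives, and 3 genes that are neither, namely Il16, Il18bp and Il4i1. Il7r was set aside because its protein is one of the surface markers on which the cells were sorted. The data are chromatin immunoprecipitation followed by sequencing (ChIP-seq) of hematopoietic stem cells (HSCs), the cells that give rise to all blood lineages, from the bone marrow of young and aged C57BL/6 mice. Young mice were 10-week-old and aged mice 20-month-old, and the study's methods describe females. At both ages the sorted cells carried Sca-1+, c-kit+ and CD150+ on their surface, and were Lin-, CD34-, CD48-, Flt3- and IL-7- as the labels spell it. The marks H3K4me3, H3K27me3 and H2AK119ub1 were profiled, each with 2 libraries per age, and the authors deposited 1 pooled peak list per mark and age, which makes 6 lists. No replicate values were analysed here, so each comparison of the ages below sets 1 list beside another without a measure of spread and without a test.

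Cytokine receptors are built from a chain that binds the ligand and from shared chains that carry the signal into the cell. The common gamma chain serves IL-2, IL-4, IL-7, IL-9, IL-15 and IL-21, gp130 (Il6st) serves IL-6 and IL-11, and the IL-1 receptor accessory protein (Il1rap) serves IL-1, IL-33 and the IL-36 cytokines. Most ligands of these receptors are made by activated lymphocytes, myeloid cells or epithelia. HSCs are known to respond to several of them, such as IL-1, IL-3 and IL-6, during inflammation. H3K4me3 is a mark of active or poised promoters. H3K27me3 is written by Polycomb repressive complex 2 and H2AK119ub1 by Polycomb repressive complex 1, and both are associated with silent genes.

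The lists differed in length between the ages, which bears on every count that follows. The young list held 11371 H3K4me3 peaks against 6723 in the aged list. For H3K27me3 there were 63142 against 20419 regions. For H2AK119ub1 the order was the other way round, with 2593 young and 17768 aged regions. In the H3K4me3 lists, whole read numbers could be recovered from the fold enrichment and the p-value of 100% of the peaks, with a median of 20 reads at the summit of a young and 19 at the summit of an aged peak. Of 8 HSC marker genes, H3K4me3 was listed at the promoters of 5 in young and of 6 in aged HSCs (among them Hlf, Mecom, Meis1 and Procr at both ages, and Kit in the aged list), whereas Ly6a and Slamf1 had no such peak at either age. None of the marker genes listed for B cells (4 genes), T and NK cells (5) and granulocytes and macrophages (5) carried it in either list, and the erythroid marker gene Epor did in the young list. How list length and sequencing depth enter the age differences was not tested.

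Interleukin ligand genes were mostly without any mark at their promoters, and receptor genes were marked more often. A promoter is the stretch within 1 kb of the start of a coding transcript, and a gene with several starts counted as marked when a peak touched 1 or more of them, if only by 1 bp. Over the 6 lists together, 10 of 38 ligands (26.3%) and 20 of 40 receptors (50.0%) had a promoter peak, where 55.0% of all protein-coding genes had one. H3K4me3 was listed in young HSCs at 16 members, namely 3 ligands, 11 receptors and 2 others, against 33.8% of all genes. In aged HSCs it was listed at 11 members, namely 4 ligands, 5 receptors and 2 others, against 23.3% of all genes. The gap between ligands and receptors was thus wide in the young list (7.89% against 27.5%) and narrow in the aged list (10.5% against 12.5%).

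At the same promoters the Polycomb marks were listed as follows. H3K27me3 was listed at the promoters of 11 members in young HSCs (4 ligands and 7 receptors, with 16.0% of all genes marked) and of 5 in aged HSCs (3 ligands and 2 receptors, with 8.24% of all genes). H2AK119ub1 was listed at no member in young HSCs, where 1.91% of all genes were marked, and at 12 members in aged HSCs (5 ligands and 7 receptors), where 14.0% of all genes were. The share of all members with H2AK119ub1 in aged HSCs therefore lay near that of all genes. With the longer list of each mark cut to the length of the shorter by its −log10 q-values, young H3K4me3 was listed at 10 members (3 ligands, 6 receptors and Il16) and the aged list is unchanged by construction at 11. Under the same cut, young H3K27me3 was listed at 3 members and aged H2AK119ub1 at 2, beside 5 and none in the uncut lists of the other age. At equal length H3K4me3 was listed at 23.4% of all genes in young and 23.3% in aged HSCs. H3K27me3 was then listed at 11.2% of all genes in young against 8.24% in aged HSCs, while for H2AK119ub1 the shares were 1.91% and 2.92%. For H3K27me3 at equal length, the count of members was thus lower in young than in aged HSCs (3 against 5), whereas the share of all genes was higher. The difference in members rests on Il33 and Il5 alone. The lowest −log10 q was 2.30 in the cut young list and 1.01 in the uncut aged list. No direction is read from so few genes.

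**Figure D1:**
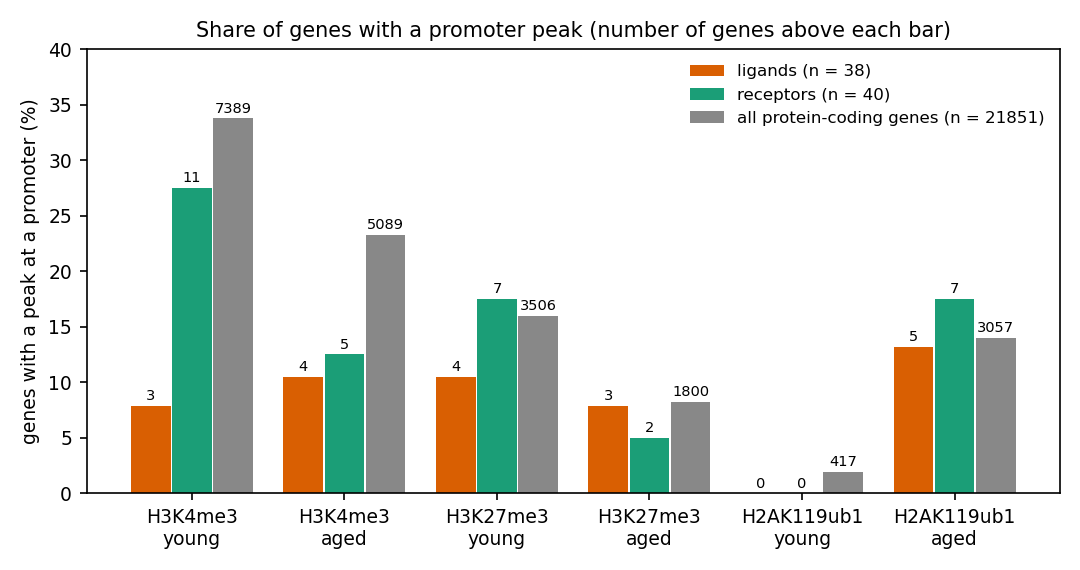
Percentage of ligand, receptor and all protein-coding genes with a peak within 1 kb of a start site (vertical axis) in each of the 6 pooled lists (horizontal axis), with the number of genes printed above each bar; each bar is 1 pooled list, so there are no error bars. In the young H3K4me3 list 11 of 40 receptors and 3 of 38 ligands were marked, and in the aged list 5 and 4.

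Among the ligands, H3K4me3 at both ages was found at Il15 and Il7 only. Il15, a growth factor of NK and memory T cells, had its strongest young peak (506 bp, 5.10-fold over background, −log10 q 7.16) at chr8:82401114-82401619, 214 bp downstream of a start site. In aged HSCs both Il15 peaks, of 354 bp with 4.53-fold and of 264 bp with 4.59-fold enrichment, covered a start site. Il7, the lymphocyte growth factor, had a 273-bp peak over a start site in young HSCs at chr3:7613476-7613748 (4.84-fold, −log10 q 6.67). Its single aged peak at chr3:7613172-7613397 lay 330 bp downstream of a start site with nearly the same enrichment (4.64-fold). Neither gene had a Polycomb mark at its promoter at any age.

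3 further ligands carried H3K4me3 at 1 age. Il4, which directs type 2 immune responses, had it in the young list only, at chr11:53617080-53617279 (200 bp, 3.92-fold, −log10 q 4.43) and in a second peak of 3.83-fold 737 bp downstream of a start. Il12a, which encodes the p35 subunit of IL-12 and IL-35, had it in the aged list only, at chr3:68691617-68691879 (263 bp, 3.76-fold, −log10 q 3.14). Il17d, a member of the IL-17 family, also had it in the aged list only, 946 bp downstream of a start site at chr14:57525723-57525922 (200 bp, 4.42-fold, −log10 q 4.71). All 3 had a Polycomb mark in the aged list as well, as described below.

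At the promoters of receptor genes, the strongest H3K4me3 in young HSCs was at Il15ra and Il1rap. Il15ra, whose product binds IL-15 and presents it to neighbouring cells, had a 728-bp peak at chr2:11705778-11706505 with 5.85-fold enrichment and a −log10 q of 9.72, the highest among the members' promoters. Its summit held 28 reads over a background of 3.96. A 758-bp peak of 4.31-fold lay at nearly the same place in aged HSCs. Il15ra was the receptor with the highest H3K4me3 enrichment among those marked at both ages. The 250 bases before its start site are therefore shown, from the RefSeq promoter table (GRCm38.p6, chr2:11705462-11705711, plus strand), with each CG dinucleotide in capitals.

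Il15ra: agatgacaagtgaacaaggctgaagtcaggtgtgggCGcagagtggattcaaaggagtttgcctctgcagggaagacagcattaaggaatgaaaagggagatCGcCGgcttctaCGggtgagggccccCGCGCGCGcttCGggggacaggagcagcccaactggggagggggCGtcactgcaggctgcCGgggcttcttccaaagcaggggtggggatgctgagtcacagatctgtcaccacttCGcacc

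This stretch held 12 CG dinucleotides at a CpG content of 0.55 (observed over expected from its C and G bases), many of them in a short run, and 1 match to TGANTCA (read as TGAGTCA) from 30 to 24 bases before the start. Il1rap, the shared accessory chain, had a 410-bp young peak 13 bp downstream of its start at chr16:26581770-26582179 (5.74-fold, −log10 q 9.02). In the aged list a single 205-bp peak was listed there, farther into the gene at chr16:26582358-26582562, with 3.58-fold enrichment. Il1rl2, which encodes the IL-36 receptor, went the other way. Its young peak had 3.55-fold enrichment (448 bp, −log10 q 3.41), and the stronger of its aged peaks, at chr1:40325290-40325561, had 5.31-fold (272 bp, −log10 q 7.02). These 3 were the only receptors with H3K4me3 in both lists, 3 of the 11 marked in young HSCs (27.3%), whereas 51.8% of all genes marked in young HSCs were also marked in the aged list.

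8 receptor genes had H3K4me3 in the young list only. The strongest was Il6st, which encodes gp130, with a 594-bp peak at chr13:112464476-112465069 (4.89-fold, −log10 q 6.54) and a second peak across a start site. Il17rd, a receptor relative known as an inhibitor of FGF signalling, followed with 4.44-fold at chr14:27039760-27039962 (203 bp, −log10 q 5.52). Il4ra, the signalling chain for IL-4 and IL-13, had 4.30-fold at chr7:125552336-125552535 (200 bp, −log10 q 5.52), and Il11ra1, the IL-11 receptor, 4.23-fold at chr4:41760822-41761269 (448 bp, −log10 q 4.96). These 4 remained in the young list after it was cut to the length of the aged list.

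The other 4 were weaker and dropped out under that cut. Il1r2, a decoy receptor that binds IL-1 without signalling, had 3.63-fold at chr1:40085691-40085897 (207 bp, −log10 q 3.36). Il12rb2, the IL-12 receptor chain, had 3.61-fold at chr6:67375694-67375960 (267 bp, −log10 q 3.15). Il17ra, the chain shared by the IL-17 receptors, had 2 peaks up to 3.61-fold, the stronger at chr6:120464170-120464415 (246 bp, −log10 q 3.15). Il10ra, the ligand-binding chain of the IL-10 receptor, had 3.25-fold at chr9:45268553-45268764 (212 bp, −log10 q 3.10). All 8 lay at or downstream of a start site of their own gene, and none of these peaks reached the promoter of another coding gene.

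In the aged list only, H3K4me3 was found at Il10rb and Il1rapl1. Il10rb, the chain shared by receptors of the IL-10 family, had a 219-bp peak 147 bp upstream of its start at chr16:91405870-91406088 (4.64-fold, −log10 q 5.27) and a second peak of 3.76-fold in an intron. Both chains of the IL-10 receptor thus carried H3K4me3 in 1 list each, Il10ra in the young and Il10rb in the aged list. Il1rapl1, an IL-1 receptor relative known from neuronal synapses, had a 310-bp peak 433 bp upstream of a start at chrX:88116078-88116387 (4.04-fold, −log10 q 4.01).

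The 3 genes that are neither ligand nor receptor all had H3K4me3. Il16, which encodes the precursor of a CD4-binding cytokine, was marked at both ages, with 5.74-fold in an 880-bp young peak at chr7:83653651-83654530 (−log10 q 9.02) and 4.11-fold in a 523-bp aged peak at chr7:83654857-83655379 (−log10 q 4.51). Il18bp, a soluble protein that neutralises IL-18, was marked in the aged list only, at chr7:102017430-102017643 (214 bp, 3.76-fold, −log10 q 3.14). Il4i1, a secreted amino acid oxidase, was marked in the young list only, at chr7:44817200-44817401 (202 bp, 3.83-fold, −log10 q 3.67). That peak also lay on the promoters of Atf5 and Nup62 and was nearest to a start site of another gene, so it cannot be assigned to Il4i1.

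**Figure D2:**
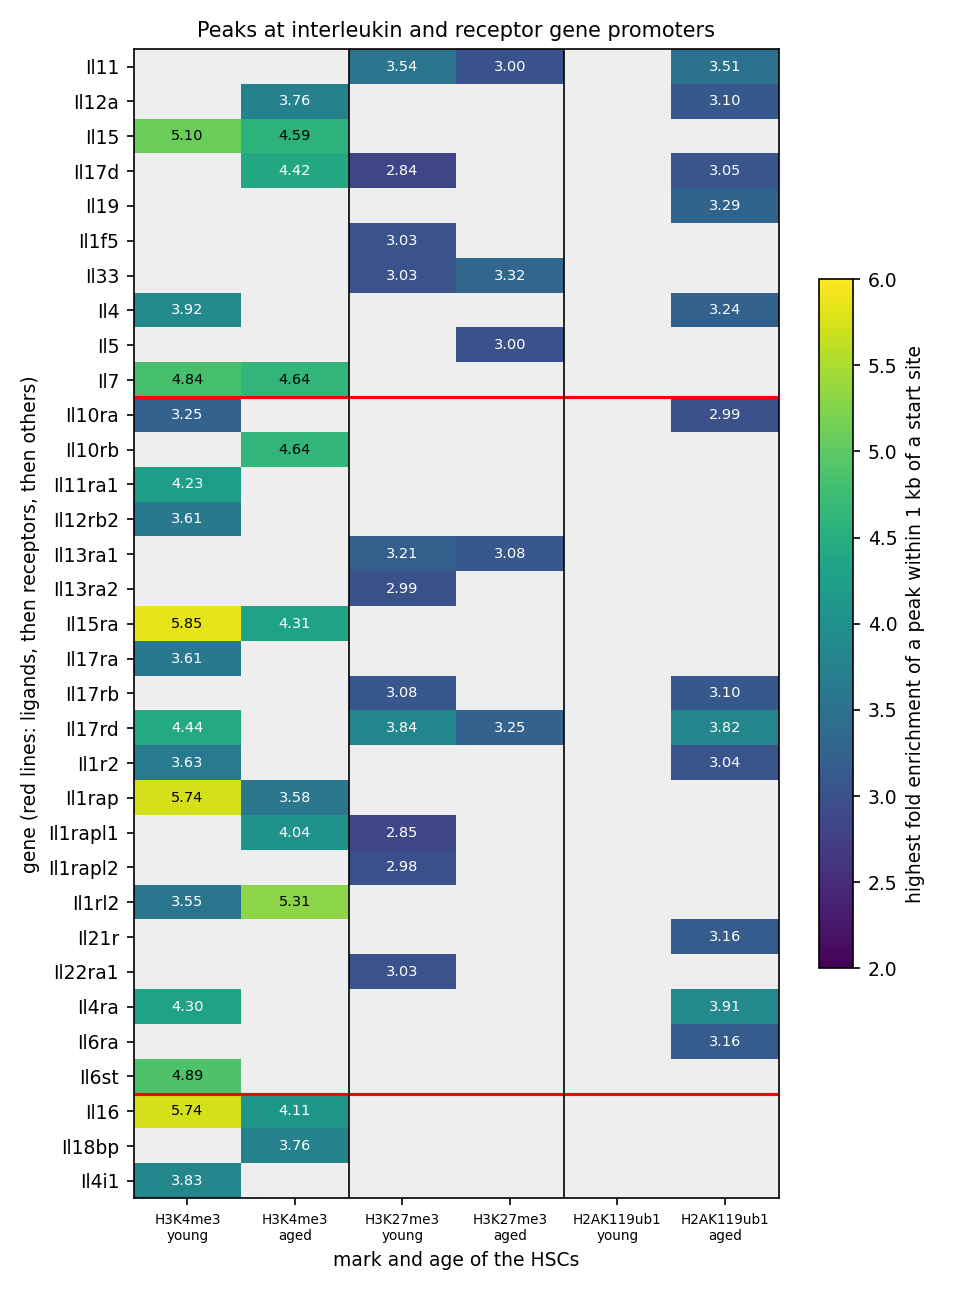
Highest fold enrichment of a peak within 1 kb of a start site (colour and printed value) for the 33 members with a promoter peak (rows; 10 ligands, then 20 receptors, then 3 others) in each of the 6 pooled lists (columns); grey means that no peak was listed. The H3K4me3 columns hold values up to 5.85 at Il15ra, and the young H2AK119ub1 column is empty. For H3K27me3 and H2AK119ub1 the fold is averaged over a region, so these columns are not comparable in height with those of H3K4me3.

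H3K27me3 at promoters was found in both lists at Il11, Il33, Il17rd and Il13ra1. Il11, a gp130 cytokine, had a 1256-bp region in young HSCs at chr7:4776613-4777868 (3.54-fold, −log10 q 3.28) and a second region of 446 bp. In aged HSCs 345 bp were listed there at chr7:4777002-4777346, with 3.00-fold enrichment and a −log10 q of 1.31. Aged H2AK119ub1 covered more of this gene than either, with a 2027-bp region at chr7:4775921-4777947 (3.51-fold, −log10 q 2.28) and an 880-bp region upstream of the start. Il11 was the ligand with the longest Polycomb coverage of its promoters, and the 250 bases before the start site nearest to these regions are shown from the same table (chr7:4778142-4778391, minus strand), with CG dinucleotides in capitals.

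Il11: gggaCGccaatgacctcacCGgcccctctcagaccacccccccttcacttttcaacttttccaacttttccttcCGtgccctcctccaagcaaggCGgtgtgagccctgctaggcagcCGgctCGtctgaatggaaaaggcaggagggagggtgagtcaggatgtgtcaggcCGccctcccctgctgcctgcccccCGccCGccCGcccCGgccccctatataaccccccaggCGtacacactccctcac

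The stretch held 12 CG dinucleotides at a CpG content of 0.50. From 98 to 92 bases before the start it had 1 match to TGANTCA, read as TGAGTCA. It also had 4 matches to GGGCGG on the opposite strand, which in part overlap each other and not the first motif. The match to TGANTCA has the same letters as the one before Il15ra, a gene with H3K4me3 and no Polycomb mark.

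H3K4me3 and H3K27me3 were listed together at the promoters of 1.23% of members in young HSCs, beside 2.96% of all genes. In aged HSCs no member had both, beside 0.792% of all genes. Il17rd was the only member with both and the receptor with the longest Polycomb coverage. A 1966-bp H3K27me3 region at chr14:27038636-27040601 (3.84-fold, −log10 q 3.68) ran across its start site and held the H3K4me3 peak described above. In aged HSCs the H3K27me3 region was 417 bp long (3.25-fold, −log10 q 1.68). Aged H2AK119ub1 was listed over 931 bp at chr14:27039460-27040390 (3.82-fold, −log10 q 2.78), and no H3K4me3 was listed. The 250 bases before the start (chr14:27038751-27039000, plus strand) lay inside the young H3K27me3 region.

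Il17rd: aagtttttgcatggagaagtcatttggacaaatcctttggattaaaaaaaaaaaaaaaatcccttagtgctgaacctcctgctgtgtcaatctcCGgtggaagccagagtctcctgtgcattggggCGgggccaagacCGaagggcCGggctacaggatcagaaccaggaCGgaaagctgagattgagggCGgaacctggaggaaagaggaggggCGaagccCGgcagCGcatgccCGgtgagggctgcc

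They held 10 CG dinucleotides at a CpG content of 0.56 and 2 matches to GGGCGG, and no match to TGANTCA.

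Il33 and Il13ra1 were the other members with promoter H3K27me3 in both lists. Il33, an alarmin of barrier tissues, had 3.03-fold in a young region of 211 bp over a start site and 3.32-fold in an aged region at chr19:29925878-29926384 (507 bp, −log10 q 1.85). Il13ra1, the second chain of the IL-13 receptor, lies on chromosome X and had 3.21-fold at chrX:36112883-36113732 in young (850 bp, −log10 q 2.54) and 3.08-fold over 410 bp in aged HSCs. Il5, the eosinophil growth factor, was the only member with H3K27me3 in the aged list alone (chr11:53720273-53720850, 578 bp, 3.00-fold, −log10 q 1.33).

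7 members had promoter H3K27me3 in the young list alone. Of the members with promoter H3K27me3 in young HSCs, 36.4% also had it in the aged list, beside 48.8% of all such genes. Il17rb, the IL-25 receptor chain, had a 1086-bp region over a start at chr14:30008516-30009601 (3.08-fold, −log10 q 1.97), which also lay on the promoter of Chdh. Il17d, whose promoter was CpG-rich, had 853 bp over its start at chr14:57523989-57524841 (2.84-fold, −log10 q 1.69). Il22ra1, the IL-22 receptor of epithelia, had 562 bp at chr4:135728548-135729109 (3.03-fold, −log10 q 1.86), and Il1f5, the IL-36 receptor antagonist, 347 bp over a start at chr2:24277000-24277346 (3.03-fold, −log10 q 1.66).

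The last 3 of them, Il13ra2, Il1rapl1 and Il1rapl2, are on chromosome X. Il13ra2, a decoy for IL-13, had 204 bp of 2.99-fold at chrX:147404714-147404917 (−log10 q 1.64). Il1rapl2, a close relative of Il1rapl1, had 910 bp of 2.98-fold at chrX:137650241-137651150 (−log10 q 1.84). Il1rapl1 had 200 bp of 2.85-fold at chrX:87890159-87890358 (−log10 q 1.45), over a different start site from the one with aged H3K4me3. No H3K27me3 or H2AK119ub1 region at a member's promoter reached a −log10 q of 4. Few regions at any gene did. Such an H3K27me3 region was listed at the promoters of 2.18% of all genes in young and 0.0412% in aged HSCs. For H2AK119ub1 these shares were 0.00915% and 0.188%.

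H2AK119ub1 was listed at the promoters of 12 members, all in aged HSCs. Besides Il11 and Il17rd, these were the ligands Il4, Il12a, Il17d and Il19 and the receptors Il4ra, Il1r2, Il10ra, Il6ra, Il21r and Il17rb. For 10 of the 12 no H3K27me3 was listed at a promoter in aged HSCs, and over all genes this held for 1967 of 3057. The highest enrichment was at Il4ra, with 3.91-fold over 200 bp (−log10 q 2.97). Il19, a cytokine of the IL-20 subfamily, had 3.29-fold at chr1:130940954-130941161 (208 bp, −log10 q 1.76), 839 bp upstream of a start.

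Il4 had 3.24-fold at chr11:53617470-53617669 (200 bp, −log10 q 1.69). Il6ra, the IL-6 receptor chain, had 2 regions, the stronger 454 bp upstream of a start at chr3:89913650-89914117 (468 bp, 3.16-fold, −log10 q 1.53). Il21r, the IL-21 receptor, had a region over a start at chr7:125603470-125603811 (342 bp, 3.16-fold, −log10 q 1.77). Il12a and Il17d had 3.10-fold (chr3:68692269-68692589, 321 bp, −log10 q 1.58) and 3.05-fold (chr14:57524380-57524697, 318 bp, −log10 q 1.31). They were the only members with H3K4me3 and H2AK119ub1 together at a promoter, 2.47% of the members beside 3.16% of all genes in aged HSCs.

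At Il17rb the aged H2AK119ub1 region (chr14:30009330-30009560, 231 bp, 3.10-fold, −log10 q 1.40) lay nearest to the start of Chdh. Il1r2 had 3.04-fold at chr1:40085620-40085842 (223 bp, −log10 q 1.68). Il10ra had 2.99-fold at chr9:45269909-45270439 (531 bp, −log10 q 1.20). Only Il17rd and Il4ra of the 12 remained when the aged list was cut to the 2593 regions of the young list.

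Several members had H3K4me3 at a promoter in young HSCs and H2AK119ub1 there in aged HSCs. Of the 10 members with H3K4me3 in the young list only, 5 had H2AK119ub1 in the aged list, namely Il4, Il4ra, Il10ra, Il1r2 and Il17rd. Over all genes 16.6% of those with H3K4me3 in the young list only did. Of the 6 members with H3K4me3 in both lists none did, and 12.0% of all such genes did. The group was noticed in these lists and holds few genes, so its share is given as a count only.

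The positions of the peaks differed within this group. At Il17rd the 203-bp H3K4me3 peak lay wholly inside the aged H2AK119ub1 region, and at Il1r2 the peaks shared 152 bp. At Il4 they were 190 bp apart and at Il10ra 1144 bp apart. At Il4ra the young H3K4me3 peak and the aged H2AK119ub1 region had the same first and last base, chr7:125552336-125552535, in an intron 216 bp downstream of a start. It was the only interval with identical ends in these 2 lists, and both are of the shortest length listed. Its sequence, read from GRCm38.p6 on the plus strand and chosen after these values were seen, is shown with CG dinucleotides in capitals.

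Il4ra: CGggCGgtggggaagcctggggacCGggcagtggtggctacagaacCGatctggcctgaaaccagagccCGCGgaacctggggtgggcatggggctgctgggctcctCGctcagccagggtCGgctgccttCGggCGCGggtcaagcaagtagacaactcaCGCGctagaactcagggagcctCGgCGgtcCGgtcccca

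The interval held 16 CG dinucleotides in 200 bases, had a GC content of 69.0% and a CpG content of 0.68, and 11.0% of its bases were masked as repeats in the reference.

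Setting ligands beside their own receptors showed that the pairs were marked in different ways. For IL-15, both Il15 and Il15ra had H3K4me3 at both ages, while Il2rb and Il2rg, the chains that carry its signal, had no promoter peak in any list. For IL-4, both Il4 and Il4ra had H3K4me3 in the young list and H2AK119ub1 in the aged list. For IL-11, the ligand gene carried the Polycomb marks whereas Il11ra1 and Il6st carried H3K4me3 in young HSCs. For IL-33, the ligand gene carried H3K27me3 at its promoter at both ages, and 2 young H3K4me3 peaks in its gene body away from the promoters. Its receptor Il1rl1 had no peak of any kind, and the accessory chain Il1rap had H3K4me3 at both ages.

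For IL-1, IL-3 and IL-6, to which HSCs are known to respond, the marks differed between the genes involved. Il1r1, the signalling IL-1 receptor, had no peak at its promoter or in its gene body in any list, nor had Il1a and Il1b. Il3 and Il3ra were also without any peak, although the Il3ra promoter was CpG-rich. Il6 had none, and Il6ra had aged H2AK119ub1 only. The shared chains Il1rap and Il6st carried H3K4me3, as described above. Absence from a list does not show that a mark is absent, since the lowest summit in the H3K4me3 lists held 13 reads and weaker signal could not be listed.

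In all, 34 of the 81 members had no peak at a promoter or in the gene body in any list, and 47 (58.0%) had at least 1, against 62.9% of all protein-coding genes. Of the 34, 21 were ligands (55.3% of the ligands) and 13 receptors (32.5%). They included the neighbours Il2 and Il21, which span 112 kb of chromosome 3 without a peak in any list. The nearest H3K4me3 peak to the start of Il2 was 187 kb away in either list, and that to the start of Il3 170 kb. The median distance from a member's outermost start to the nearest young H3K4me3 peak was 66.7 kb for ligands and 32.2 kb for receptors, against 30.1 kb for all protein-coding genes. In the aged list it was 89.9 kb and 83.1 kb, against 65.6 kb.

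Few peaks were listed in the interleukin gene clusters, and the clusters differed in the lists these peaks came from. In the cluster of 6 IL-1 receptor genes from Il1r2 to Il18rap on chromosome 1 (478 kb), H3K4me3 and aged H2AK119ub1 peaks were found and no H3K27me3 region was listed at either age. In the cluster of 6 IL-1 and IL-36 ligand genes from Il1f8 to Il1rn on chromosome 2 (198 kb) there were 5 young H3K27me3 regions. No peak of the other 5 lists was found there. The neighbours Il17a and Il17f on chromosome 1 likewise had 5 young H3K27me3 regions and nothing else. Young H3K27me3 covered 0.852% of the Il1f8 to Il1rn cluster and 3.59% of the Il17a and Il17f stretch, beside 1.82% of all gene bodies. The young H3K27me3 list was the longest of the 6. Whether these counts differ from those of other stretches of like length was not tested. In the type 2 cytokine cluster Il4, Il13 and Il5 on chromosome 11 (122 kb), young HSCs had 2 H3K4me3 peaks, both at Il4, and aged HSCs 1 H3K27me3 region and 2 H2AK119ub1 regions.

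Gene bodies were marked over short stretches in most members. H3K4me3 overlapped the gene body, from first to last base of the gene, of 18 members in young and 12 in aged HSCs, against 32.0% and 21.4% of all genes. Away from the promoters it was found in 7 and 4 members (8.64% and 4.94%), beside 8.70% and 4.88% of all genes. The most enriched of these peaks was in Il21r, 27102 bp from the nearest start in a coding exon (chr7:125630639-125630981, 6.59-fold, −log10 q 11.7), and an aged peak of 4.89-fold lay close by. The young H3K4me3 peaks within the 69.5-kb body of Il11ra1 away from its own starts lay at the promoters of other genes, among them Rpp25l, Dctn3 and Galt, which are inside or beside the annotated gene, so they cannot be assigned to Il11ra1.

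H3K27me3 overlapped the gene bodies of 21 members in young HSCs (11 ligands and 10 receptors, with 21.2% of all genes) and of 12 in aged HSCs (4 ligands and 8 receptors, with 12.5%). Il17a, the Th17 cytokine, had the largest covered share in the young list, 28.0% of 3.59 kb, and none in the aged list. Il11 followed with 26.6% in young and 3.29% in aged HSCs, Il17b with 18.4% and 5.75%, and Il1f5 with 17.3% and none. Il13ra1 had 9.93% in young and 7.98% in aged HSCs, the largest share in the aged list. In Il11ra1 the shares were 9.74% and 2.89%, but the regions lay nearest to the starts of Arid3c and Dctn3. The members with the next largest shares in the aged list were Il17rb (1.57%) and Il33 (1.42%).

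**Figure D3:**
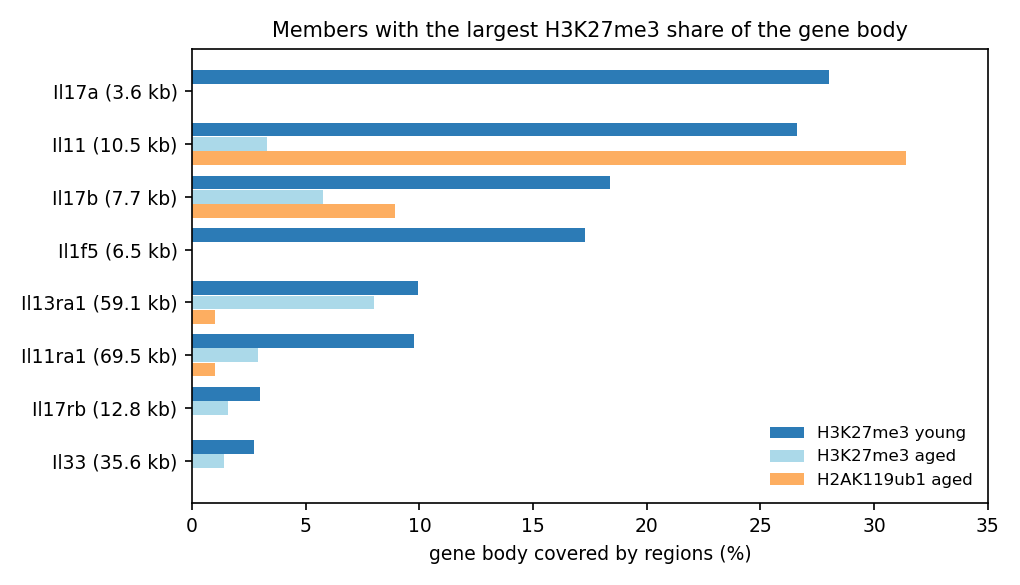
Percentage of the gene body covered by H3K27me3 regions in young and aged HSCs and by H2AK119ub1 regions in aged HSCs (horizontal axis) for the 8 members that are among the 6 with the largest H3K27me3 share at either age (vertical axis, with gene length); each bar is 1 pooled list. All 8 had a larger H3K27me3 share in the young list, and Il11 had its largest share, 31.4%, in aged H2AK119ub1.

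H2AK119ub1 overlapped the gene bodies of 3 members in young HSCs, all receptors (Il11ra1, Il13ra1 and Il9r), against 4.11% of all genes. In aged HSCs it overlapped those of 24 members, 5 ligands and 17 receptors among them, against 22.1% of all genes. Away from the promoters these were 22 members (27.2%), beside 18.4% of all genes. Among them were 16 receptors (40.0% of the receptors) and 4 ligands (10.5% of the ligands). Il9r, the IL-9 receptor, was the only member with this mark in the young list alone (chr11:32196629-32196883, 255 bp, 3.78-fold, −log10 q 2.52). In Il13ra1 the young region overlapped an aged region, which had the highest enrichment of all H2AK119ub1 regions in members (3.99-fold, −log10 q 3.29). The median gene length was 35.6 kb for receptors and 7.23 kb for ligands, and the part of length in these counts was not tested. By length, 0.997% of the summed ligand bodies and 0.254% of the summed receptor bodies were covered in aged HSCs, or 0.706% of the receptor bodies without chromosome X. Over all protein-coding genes 0.406% of the summed bodies was covered, or 0.408% without chromosome X. Il11 held most of the ligand coverage, and 0.322% of the summed bodies of the other 37 ligands were covered.

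5 receptor genes lie on chromosome X, and they held most of the H3K27me3 of the whole set. Of 105 kb of gene body covered in young HSCs, 20.6 kb were on the other chromosomes, and of 23.4 kb in aged HSCs 4.78 kb. Il1rapl1 and Il1rapl2, each spanning more than a megabase, had 86 and 130 H3K27me3 regions in the young list and 31 and 10 in the aged list. These amounted to 6.26 and 10.2 regions per 100 kb in young HSCs, beside 7.31 for the whole of chromosome X, and to 2.25 and 0.783 in aged HSCs, beside 2.63. By number of regions Il1rapl1 was thus slightly below the chromosome at both ages, whereas Il1rapl2 was above it in the young and below it in the aged list. By share of the gene body covered, both genes were below the gene bodies of chromosome X at both ages. In young HSCs the shares were 2.04% for Il1rapl1 and 3.94% for Il1rapl2, beside 5.97% for the chromosome. In aged HSCs they were 0.750% and 0.285%, beside 1.60%.

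**Figure D4:**
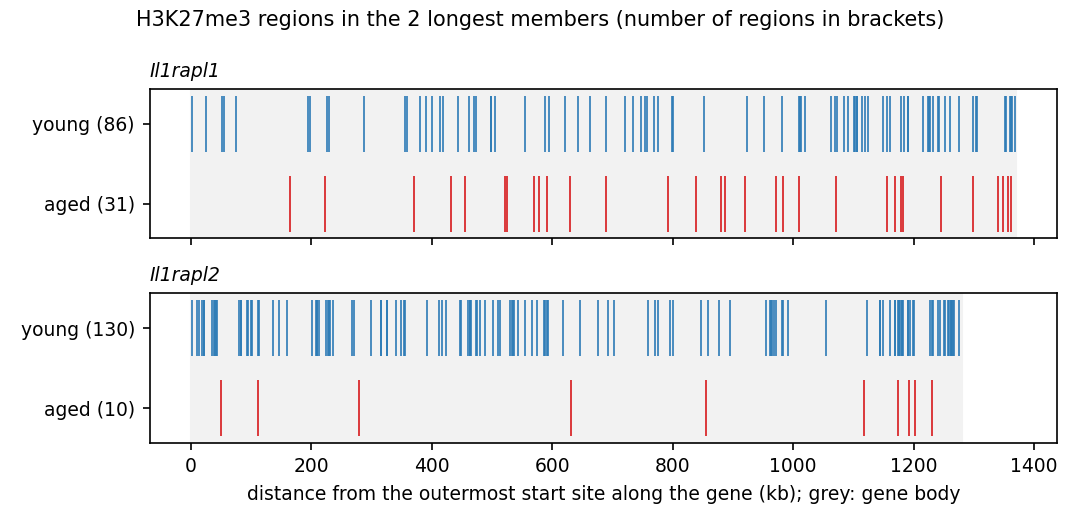
H3K27me3 regions (vertical lines, at the centre of each region) along Il1rapl1 and Il1rapl2 by distance in kb from the outermost start site (horizontal axis), in young (blue) and aged (red) HSCs, with the gene body in grey and the number of regions in brackets. Regions were spread over the whole of both genes, with 86 and 130 in young HSCs and 31 and 10 in aged HSCs.

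The regions in these genes were small and rarely in the same place at both ages. Median widths were 300 bp in young and 313 bp in aged HSCs for Il1rapl1, and 348 bp and 370 bp for Il1rapl2. Only 3 aged regions in each gene overlapped a young region, which is 9.68% of the aged regions of Il1rapl1 and 30.0% of those of Il1rapl2. Along the gene body of Il13ra1, the promoter included, 13 regions were listed in young HSCs and 10 in aged HSCs.

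Low CpG content was a property that most members shared and that the choice of genes did not use. In the 2 kb around the start site, the median CpG content was 0.209 for ligands and 0.311 for receptors, against 0.503 for all protein-coding genes. At a threshold of 0.5, only 9 members (11.1%) were CpG-rich, against 50.4% of all genes. They were Il17d among the ligands, Il17ra, Il17rd, Il1rap, Il1rapl2, Il3ra, Il6ra and Il6st among the receptors, and Il4i1. All of them except Il3ra had a promoter peak in at least 1 list.

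When members were set beside genes of like CpG content, their H3K4me3 shares were closer to those of all genes in the young list than in the aged list. Of the 72 CpG-poor members 15.3% had H3K4me3 in young and 12.5% in aged HSCs, beside 12.2% and 7.60% of all CpG-poor genes. Of the 9 CpG-rich members 55.6% had it in the young list, beside 55.1% of all CpG-rich genes, and 22.2% in the aged list, beside 38.7%. In the aged list the CpG-poor members thus lay above and the CpG-rich members below the genes of their class, and the part of CpG content in the members' overall share was not tested. Among CpG-poor promoters, 3 of 37 ligands (8.11%) and 7 of 33 receptors (21.2%) had H3K4me3 in the young list. In the aged list the shares were 8.11% and 12.1%. The young list was also cut to the length of the aged list. The CpG-poor genes left were then the ligands Il15, Il4 and Il7 and the receptors Il11ra1, Il15ra and Il4ra. A gap between ligands and receptors within this class was thus seen in the full young list only, and it rests on few genes.

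**Figure D5:**
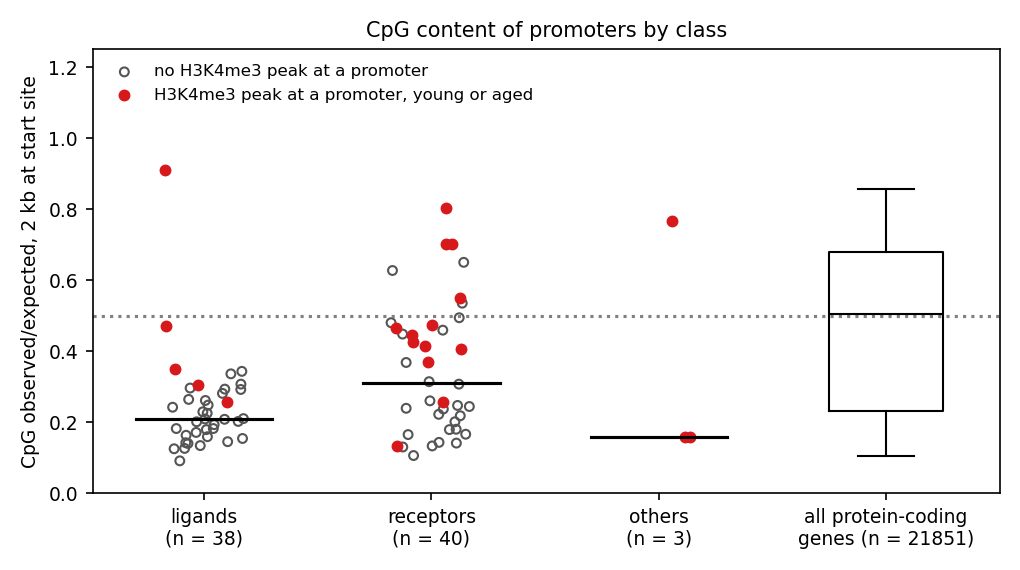
CpG observed over expected in the 2 kb around a start site (vertical axis; for genes with several start sites the highest value) for ligands, receptors, others and all protein-coding genes. Each point is 1 member, red where H3K4me3 was listed at a promoter at either age, black lines are medians, the dotted line is the threshold of 0.5, and the box spans the quartiles with whiskers from the 5th to the 95th percentile; ligands sit mostly below 0.4 and 1 ligand, Il17d, lies above the threshold.

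RefSeq promoter sequences were found for 64 members, and short motifs were counted on both strands in the 250 bases before the start sites. TGANTCA, the motif of the AP-1 family, was present in 14 of the 64 (21.9%), namely 7 of 28 ligands and 6 of 33 receptors and Il16, against 7.82% of all 27025 genes of the table. The ligands were Il11, Il17a, Il1a, Il1f8, Il1rn, Il6 and Il9, of which Il11 alone had a promoter peak. TTCNNNGAA, the motif of STAT factors, was present in 7 members (10.9%), against 8.13% of all genes. GGGCGG, the motif of SP and KLF factors, was present in 14.3% of ligands and 42.4% of receptors, against 35.4% of all genes. A match describes these letters only and says nothing about binding in HSCs.

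Genes of interleukin signalling carried H3K4me3 at their promoters more often than the interleukin genes. The 33 signalling genes were JAK kinases, STAT factors, SOCS inhibitors, adaptors of the IL-1 and IL-17 receptors, related receptor chains and the cytokine subunit Ebi3. Of these, 22 had H3K4me3 in young and 13 in aged HSCs, which are 66.7% and 39.4% beside 33.8% and 23.3% of all genes. Those marked at both ages included Jak2, Stat4, Stat5b, Stat6, Cish, Myd88, Irak4 and Traf6. Jak3 and Stat3 had H3K4me3 in the young list only.

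Of the Polycomb marks, H3K27me3 was listed at 2 of them in young (6.06%, beside 16.0% of all genes) and at 1 in aged HSCs (3.03%, beside 8.24%), and H2AK119ub1 at 5 in aged HSCs (15.2%, beside 14.0%). H3K27me3 was found at Osmr, the oncostatin M receptor, in young HSCs (1856 bp, 3.60-fold), and at Lifr, the receptor of leukemia inhibitory factor, in both lists. The widest Lifr region was 10013 bp in young HSCs (3.66-fold), and in aged HSCs no region at its promoters was wider than 898 bp. H2AK119ub1 was listed in aged HSCs at Lifr, Irak1, Socs1, Socs3 and Socs5, and in young HSCs at none. Of the 11 signalling genes with H3K4me3 in the young list only, 3 had H2AK119ub1 in the aged list (27.3%), beside 16.6% of all such genes. They were Socs1, Socs3 and Socs5, feedback inhibitors of cytokine signalling. The regions at Socs1, Socs3 and Socs5 were narrow (429, 200 and 200 bp) with 3.04-fold, 3.08-fold and 2.99-fold enrichment. None of them overlapped the young H3K4me3 peak of its gene. Their −log10 q-values of 1.28, 1.65 and 1.55 lay below 2.43, the lowest in the aged list cut to the length of the young list. No direction is read from so few genes.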

How the data were processed

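ChIP-seq libraries (2 per mark and age, with 2 input libraries per age) were made by the authors from cross-linked chromatin cut with micrococcal nuclease and sonication. The submitters' processing notes name Bowtie2, MACS2 2.2.6 and build mm10. The authors deposited 1 pooled list per mark and age. The deposited fold enrichment is a linear ratio over background, as the authors' caller wrote it, and is averaged over a region for the broad marks. The deposited −log10 p-values and −log10 q-values come from the same caller. Peak names of the broad lists carry a single library number, so it is not certain that both libraries entered them. Pooling lets a peak of 1 library enter a list, and sequencing depth is not part of the lists.

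Chromosomes 1 to 19, X and Y were used, and peaks were compared with the GENCODE M21 basic annotation by overlap of at least 1 bp in Python 3.11.15 (numpy 2.4.6, pandas 2.3.3). Start sites were those of protein-coding transcripts, 41438 in all. CpG content was read from GRCm38.p6 with pysam 0.24.0. Summit reads of H3K4me3 peaks were recovered from fold and p-value within 0.02 on the log10 scale. The code was tested on simulated data. Plots used matplotlib 3.10.9.

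The members, lists, rules and alternatives were chosen with earlier results of these data known. Every member with a promoter peak was named, with the 6 members of largest H3K27me3 gene-body share at each age, the signalling genes with a Polycomb mark, and for sequences the ligand and receptor with the highest H3K4me3 enrichment at both ages and with the longest Polycomb coverage. Classes (ligand, receptor, other) were assigned by hand. Genes are not replicates, and no test was run.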

Additional observations from a re-analysis of the deposited data

How the results depend on the processing

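Of 72 recounts under 8 alternatives, 54 stayed within 1.5 times the reported number of members. The 54 include recounts that say little about robustness. With the same number of peaks at both ages, the shorter list of each mark is unchanged by construction. Young H2AK119ub1 was listed at no member's promoter under any alternative. With peaks of a −log10 q-value of at least 4, young H3K4me3 was listed at the promoters of 10 members, H3K27me3 at 0 in either list and aged H2AK119ub1 at 0. Over all genes the promoter shares at this threshold were 24.8% for young H3K4me3, 2.18% and 0.0412% for young and aged H3K27me3, and 0.188% for aged H2AK119ub1. In gene bodies young H3K27me3 was then left in 1 member, aged H3K27me3 in 0, and H2AK119ub1 in 0 at both ages. The gene-body shares of all genes were 3.24% and 0.0595% for young and aged H3K27me3, and 0.00915% and 0.330% for young and aged H2AK119ub1. With the same number of peaks at both ages, promoter counts were 10 for young H3K4me3, 3 for young H3K27me3 and 2 for aged H2AK119ub1, and gene-body counts 10 for young H3K27me3 and 5 for aged H2AK119ub1. With promoters of 500 bp on either side, aged H3K27me3 was listed at 1 member. Young H3K27me3 was listed at 7 promoters with the outermost start site only and at 7 without chromosome X. With promoters left out of the gene bodies, H3K4me3 was found in 7 young and 4 aged members. The receptor count of young H3K4me3 stayed above the ligand count under each of these alternatives (6 against 3 at its closest). No paired analysis was possible because the libraries of a mark were pooled before peaks were listed. Low enrichment and few summit reads limit what an absence from a list shows.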
